A study of Mus musculus with 12 samples.

Results

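The interferon-stimulated genes described here are 10 genes of the innate antiviral response, Ifit1, Ifit2, Ifit3, Isg15, Mx1, Mx2, Oasl1, Oasl2, Rsad2 and Usp18. They were chosen by symbol, as the spots of the array that carry exactly these gene names, among 50090 names on the array in all. They had 14 probes, and where a gene had several probes its brightest one was used and the others are given beside it. RNA came from resting B cells (RB cells) that had been purified from the spleens of BALB/c mice, and was hybridised to 12 one-colour arrays, 2 for each of 6 conditions. The cells were unstimulated, or were stimulated for 4 h with Pam2CSK4 (a lipopeptide that engages TLR-2), with a biotinylated antibody to CD86 cross-linked by streptavidin (anti-CD86), with both (TLR2.CD86), with anti-CD40, or with anti-CD40 with Pam2CSK4. The methods give 50 ng/ml of Pam2CSK4 and 0.5 µg of anti-CD86 for every 1000000 cells, and no dose of anti-CD40 is given in the sources used here. All conditions share the strain, the tissue and an age of 6 weeks. According to the labels the mice were female, while in the methods they could be of either sex. The cells were left after removal of CD43-bearing splenocytes and were not sorted further. The paper describes its microarray data as coming from 2 biological replicates. No label says whether the arrays of a condition came from separate mice or cultures. The p-values measure the spread between these arrays. The isotype control was not analysed here.

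Type I and type III interferons bind receptors that activate the kinases JAK1 and TYK2, which phosphorylate STAT proteins. These join IRF9 in a complex that binds the interferon-stimulated response element in the promoters of its target genes. TLR-2 signals from the cell surface through the adaptor MyD88 and is best known for activating NF-kB, and CD40 activates NF-kB through TRAF proteins. The 10 genes are among the best known targets of the interferon pathway in most cell types, B cells included.

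The response element was visible in the promoter sequences of part of the genes. RefSeq promoter windows, from 250 bases before to 50 bases after the transcription start (GRCm38.p6), were at hand for 7 of the 10 genes, matched by symbol, and Mx1, Mx2 and Usp18 had none. The core of the element was searched as GAAA, any 2 bases and GAAA, and as its reverse complement TTTC, any 2 bases and TTTC, which covers both strands, and overlapping matches were counted separately. It was found in 4 of the 7 genes, Isg15, Rsad2, Ifit3 and Ifit1. By comparison it occurred in 3.99% of all genes in the set of windows (1079 of 27025), and in 3.44% of all windows (1131 of 32851). Counted by gene, it was in 24 of the 52 other interferon-induced genes that had a window and in 0 of 14 NF-kB target genes. The windows of Ifit2, Oasl1 and Oasl2 did not contain these letters. The stretches that hold the matches are printed 5′ to 3′ on the strand of the gene, with the matches in capitals.
Isg15 (chr4:156200855-156200916, minus strand, 3 overlapping matches, the first beginning 78 bases before the start): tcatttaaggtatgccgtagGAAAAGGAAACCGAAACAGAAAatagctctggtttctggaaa
Ifit3 (chr19:34583353-34583436, plus strand, 2 matches): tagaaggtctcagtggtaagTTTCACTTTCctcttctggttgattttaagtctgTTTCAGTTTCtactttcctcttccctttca
Ifit1 (chr19:34640765-34640833, plus strand, 2 matches): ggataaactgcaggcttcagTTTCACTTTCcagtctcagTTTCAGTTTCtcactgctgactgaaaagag
Rsad2 (chr12:26456543-26456592, minus strand, 1 match): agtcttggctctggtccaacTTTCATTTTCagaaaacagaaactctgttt
At least 3 matches, as in Isg15, were found in 5 of the 32851 windows. A match describes the sequence, and binding was not measured.

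The signal of a gene is given on the log2 scale after the 75th percentile of its own array was subtracted from the processed intensity, so that 0 equals that percentile and each unit is a 2-fold step. It says nothing of the level of one gene against another, since probes differ in how well they bind. Of the 10 genes, 7 were well above background on all 12 arrays (Ifit1, Ifit3, Isg15, Mx2, Oasl1, Rsad2 and Usp18), and none of the member probes was saturated. Ifit2 was well above background on 5 arrays, Mx1 on 3 and Oasl2 on 0. No transcript of Oasl2 could therefore be measured, and for Ifit2 and Mx1 the data give little more than a limit. Of the 10 genes, 8 passed the filter of the test, for which a probe had to exceed its background on each array of some condition. Mx1 passed it through the unstimulated arrays, where it was highest on average, so that a lower value in the stimulated conditions was favoured by the filter, and the counts and medians over several members below leave it out.

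The probes that carry the main results are printed for the same reason, since a result on 1 probe is a result on its target sequence. Each probe has 60 bases, of which the first 30 are given for Usp18, Ifit3 and the brightest Rsad2 probe, and all 60 for the other Rsad2 probes.
Usp18 (well above background on 12 arrays): tttacacgaagactggatcctgacagatat
Ifit3 (12 arrays): caattttccagtcagcaaacctcattacta
Rsad2, brightest probe (12 arrays): tgtttggagtttggagtctaatggttgcat
Rsad2, second probe (2 arrays): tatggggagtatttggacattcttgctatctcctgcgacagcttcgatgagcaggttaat
Rsad2, dimmest probe (0 arrays): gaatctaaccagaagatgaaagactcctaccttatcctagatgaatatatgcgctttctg
The 3 probes of Rsad2 disagreed in detection, and every value of Rsad2 below rests on the brightest one. The second probes of Ifit2 and Mx1 were well above background on 0 arrays. No pair of member probes shared a run longer than 7 bases. Ifit3 has a close paralog in the mouse genome, and whether its probe also binds that transcript was not tested.

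The arrays lay on 2 slides, and 18062 of 31599 probes tested differed between them. Slide 1 held both unstimulated arrays, both arrays of anti-CD40 with Pam2CSK4 and replicate 1 of the other conditions, and slide 2 held replicate 2 of those 4. The members were touched by this difference. Oasl1 was lower on slide 2 by 0.41 on the log2 scale (adjusted p = 0.00170, limma), Isg15 by 0.40 (adjusted p = 0.00106), Usp18 by 0.22 (adjusted p = 0.0157) and Rsad2 by 0.20 (adjusted p = 0.00960), with the condition in the same fit. Unless stated otherwise, the values below come from the fit without the slide, and those of a fit with the slide as a block (the blocked fit) are given beside them where the call of a member differs. All 8 B cell markers were well above background on all arrays, and so were all 7 neutrophil and all 8 plasmacytoid dendritic cell markers. Of the 8 markers each of NK cells, T cells, and monocytes and macrophages, 7 to 8 were so on both arrays of a condition. So were single genes of other tissues, such as Ahsg of the liver and Tnnt3 of skeletal muscle, on all 12 arrays. Detection of a marker therefore does not show that the cell type was present. The levels of different lists cannot be set against each other.

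**Figure D1:**
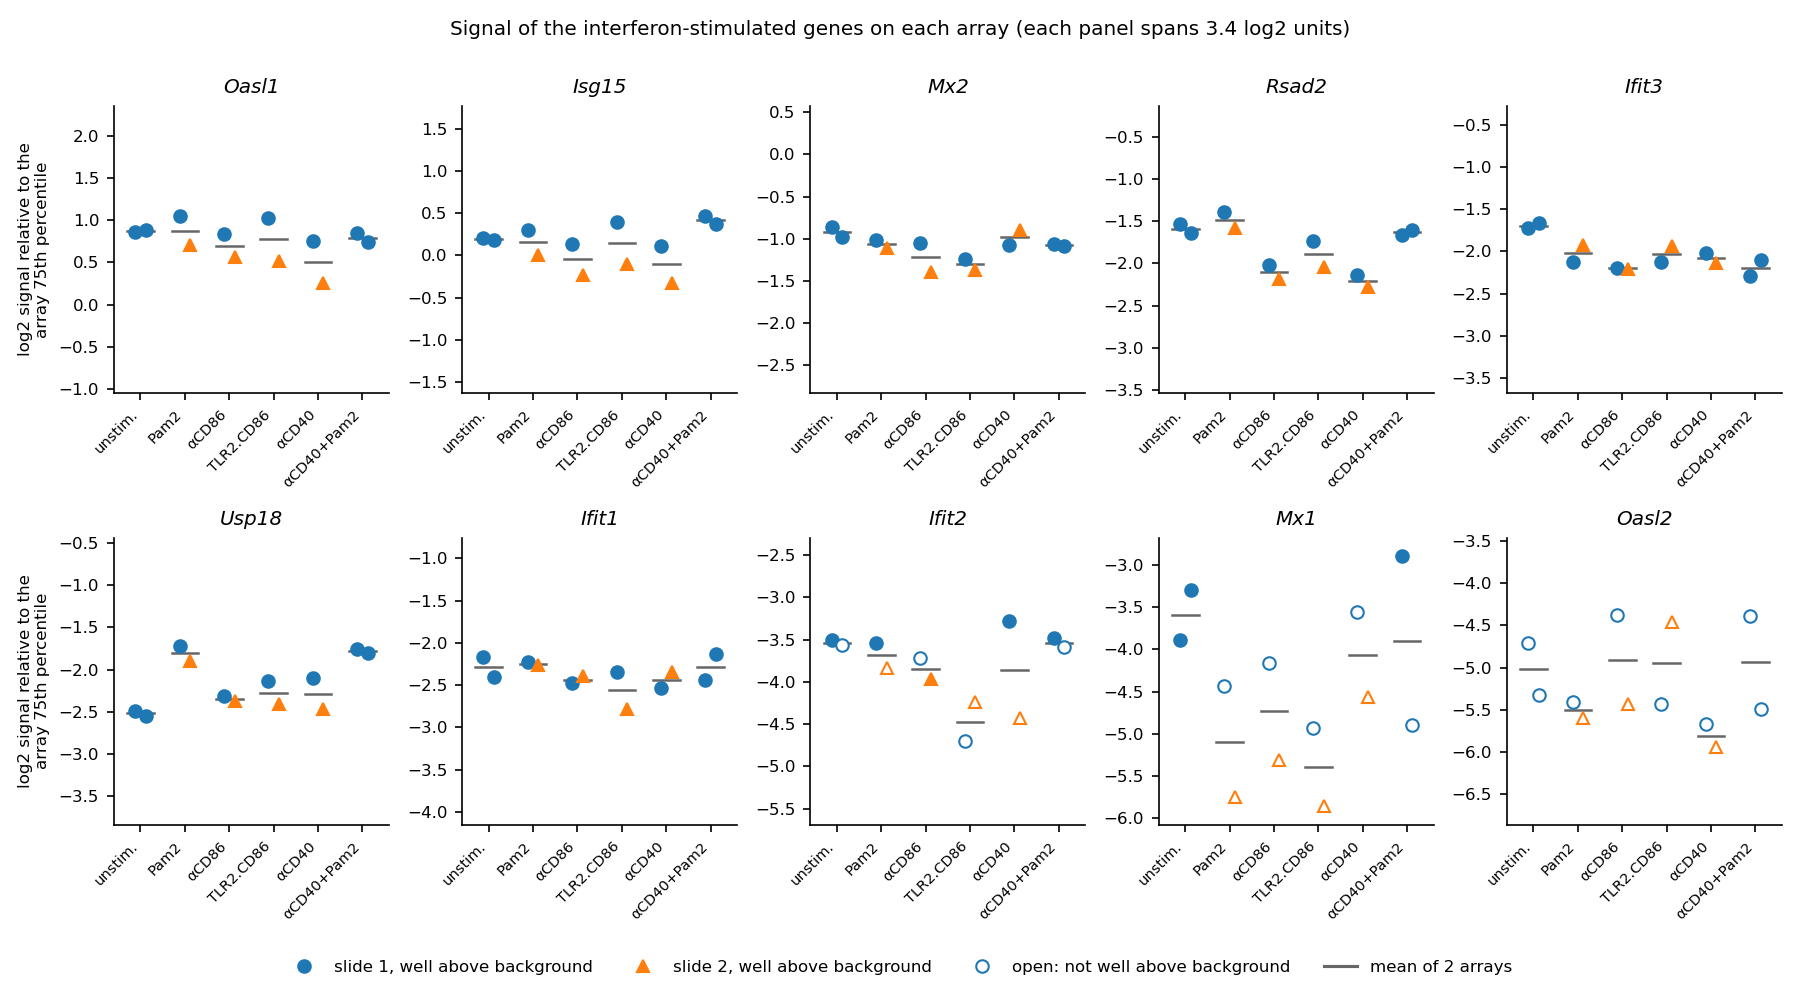
Log2 signal of the 10 genes, with the array's 75th percentile set to 0 (vertical axis, 3.4 log2 units in every panel) in the 6 conditions (horizontal axis). Each point is an array, circles lie on slide 1 and triangles on slide 2, open points were not well above background, and the line is the mean of 2 arrays. The 4 conditions that were split over the slides have their Isg15 and Oasl1 triangles below their circles, and Usp18 is above both unstimulated arrays on all 10 stimulated arrays.

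Usp18 rose with anti-CD40 with Pam2CSK4. The gene encodes the protease that removes ISG15 from proteins and that also restrains signalling at the type I interferon receptor. Its log2 signal was -2.49 and -2.56 on the unstimulated arrays and -1.76 and -1.80 with anti-CD40 with Pam2CSK4. The difference of 0.74 ± 0.16 (SE, n = 2 against 2), or 1.67-fold, passed the test (adjusted p = 0.0142, limma with Benjamini-Hochberg adjustment over all probes tested). All 4 of these arrays lay on slide 1. With Pam2CSK4 alone Usp18 measured -1.72 and -1.90, a difference of 0.71 or 1.64-fold with a 95% interval from 0.35 to 1.07, which did not pass (adjusted p = 0.126). Both Pam2CSK4 arrays were above both unstimulated arrays, as for 19.8% of all probes, and in the blocked fit the difference was 0.82 and passed (adjusted p = 0.00646). The difference between anti-CD40 with Pam2CSK4 and Pam2CSK4 alone was 0.03, with an interval from -0.32 to 0.39.

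The other stimulations gave smaller values for Usp18. It measured -2.31 and -2.38 with anti-CD86, -2.14 and -2.41 with TLR2.CD86, and -2.10 and -2.47 with anti-CD40. These arrays lay above the unstimulated ones as well, so that Usp18 was higher on 10 of 10 stimulated arrays, as were 5.76% of all probes tested. This direction depended on the scaling, since under median and quantile normalization the value with anti-CD40 was -0.33 and -0.22, and that with TLR2.CD86 was -0.04 under the former. The log2 fold changes were 0.18, 0.25 and 0.23 (adjusted p = 0.541, 0.317 and 0.322). The block on the slide gave 0.29, 0.36 and 0.34 (adjusted p = 0.0474, 0.0190 and 0.0200). In order of their means the conditions ran from unstimulated, anti-CD86, anti-CD40, TLR2.CD86 and Pam2CSK4 to anti-CD40 with Pam2CSK4. Among these, the middle 3 overlapped with one another, and so did the highest 2. TLR2.CD86 was 0.46 below Pam2CSK4 alone (interval from -0.82 to -0.11, adjusted p = 0.355), with differences of -0.41 on slide 1 and -0.51 on slide 2. In the blocked fit this difference passed (adjusted p = 0.0215).

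Rsad2 was lower with anti-CD40 alone. The gene encodes viperin, an antiviral enzyme of the endoplasmic reticulum that makes a chain-terminating nucleotide. Its log2 signal was -1.54 and -1.64 in unstimulated cells and -2.13 and -2.28 with anti-CD40. The difference of -0.61 ± 0.14 (SE, n = 2 against 2), a signal of 0.654 times that of unstimulated cells, passed the test (adjusted p = 0.0260), and the arrays of slide 1 alone gave -0.54 (adjusted p = 0.0333). When anti-CD40 was given with Pam2CSK4, Rsad2 measured -1.66 and -1.60 and overlapped with unstimulated cells (difference -0.04, adjusted p = 0.882). The pair of anti-CD40 conditions differed by 0.57 with an interval from 0.24 to 0.90 (adjusted p = 0.0821), which passed in the blocked fit (0.47, adjusted p = 0.00791).

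The other stimulations placed Rsad2 between these values or above them. Rsad2 measured -2.02 and -2.18 with anti-CD86, -1.73 and -2.04 with TLR2.CD86, and -1.39 and -1.58 with Pam2CSK4. Against unstimulated cells anti-CD86 gave -0.51 (adjusted p = 0.0928), which passed in the blocked fit (-0.41, adjusted p = 0.00762). TLR2.CD86 gave -0.29 (adjusted p = 0.201) and Pam2CSK4 0.10 (adjusted p = 0.727). By their means, Rsad2 ran from anti-CD40, anti-CD86 and TLR2.CD86 to anti-CD40 with Pam2CSK4, unstimulated cells and Pam2CSK4. In this order each condition overlapped with the next, except that TLR2.CD86 lay below anti-CD40 with Pam2CSK4. TLR2.CD86 was 0.34 below Pam2CSK4 on slide 1 and 0.45 below it on slide 2. The test gave -0.40 (adjusted p = 0.383), and the block on the slide an adjusted p of 0.0184.

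Of the IFIT family, whose proteins bind viral RNA and limit its translation, Ifit3 had lower values in every stimulated condition, of which 1 passed the test. It measured -1.72 and -1.66 in unstimulated cells. The 10 stimulated arrays ran from -2.29 to -1.92, all below both unstimulated arrays, as was the case for 16.6% of all probes tested. The difference passed for anti-CD40 with Pam2CSK4, at -0.50 ± 0.13 (SE, n = 2 against 2, adjusted p = 0.0315), where the arrays gave -2.29 and -2.10. It was -0.33 with Pam2CSK4, -0.51 with anti-CD86, -0.33 with TLR2.CD86 and -0.38 with anti-CD40, with adjusted p of 0.286, 0.0780, 0.125 and 0.0760. In the blocked fit anti-CD86 (-0.54), TLR2.CD86 (-0.37) and anti-CD40 (-0.42) passed as well. Among the stimulated conditions the Ifit3 arrays overlapped, except that those of anti-CD86 lay below those of Pam2CSK4, TLR2.CD86 and anti-CD40.

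Ifit1, of the same cluster on chromosome 19, showed no such pattern. Its signal lay between -2.78 and -2.13 on all arrays, and its log2 fold changes against unstimulated cells ran from -0.28 with TLR2.CD86 to 0.04 with Pam2CSK4. In all 5 stimulated conditions the arrays overlapped with the unstimulated ones, and anti-CD40 with Pam2CSK4 gave 0.00040 with an interval from -0.41 to 0.41. Ifit2, of the same cluster, lay between -4.70 and -3.28. It was well above background on 0 arrays of TLR2.CD86 and on 1 array of each other condition, so that no fold is given.

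Isg15, a ubiquitin-like protein that enzymes induced by interferon attach to other proteins, and Oasl1, a protein of the oligoadenylate synthetase family, showed small differences. Isg15 measured 0.20 and 0.18 in unstimulated cells, 0.31 and -0.00020 with Pam2CSK4, 0.13 and -0.23 with anti-CD86, and 0.39 and -0.10 with TLR2.CD86. It measured 0.11 and -0.32 with anti-CD40 and 0.46 and 0.37 with anti-CD40 with Pam2CSK4. In each condition split over the slides the lower array was that of slide 2, and only the arrays of anti-CD40 with Pam2CSK4 were both above the unstimulated ones. That difference was 0.23 (adjusted p = 0.542), and in the blocked fit it was also 0.23 and passed (adjusted p = 0.0272). In the same fit it was 0.32 above anti-CD40 alone (adjusted p = 0.0270).

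Oasl1 measured 0.86 and 0.89 in unstimulated cells and between 0.26 and 1.05 in the stimulated ones. Its log2 fold changes ran from -0.36 with anti-CD40 to 0.0024 with Pam2CSK4, and none passed against unstimulated cells in either fit. Of the genes of the same family, Oasl2, its neighbour on chromosome 5, was not well above background on any array.

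Mx2, of the family of dynamin-like GTPases, measured -0.86 and -0.98 in unstimulated cells and lay between -1.39 and -0.89 in stimulated cells. Whether these mice make a working protein from it was not tested. It was lowest with TLR2.CD86, at -1.24 and -1.37, a difference of -0.38 with an interval from -0.71 to -0.05 that did not pass (adjusted p = 0.115). Its arrays lay below the unstimulated ones in 4 of the 5 stimulated conditions and overlapped with them in anti-CD40. Mx1, the related GTPase whose gene is disrupted in most common inbred strains, was measured above its background in unstimulated cells (-3.89 and -3.30) and on 1 other array, of anti-CD40 with Pam2CSK4 (-2.90). Against the lowest signal that is well above background, Mx1 was lower by at least 1.37-fold with anti-CD86, 1.34-fold with TLR2.CD86 and 1.03-fold with Pam2CSK4. The fit gave adjusted p of 0.418, 0.155 and 0.363 for these differences. Lower values were favoured by the filter, which Mx1 passed through the unstimulated arrays. With anti-CD40, Mx1 (-3.56 and -4.56, neither well above background) overlapped with unstimulated cells, so that no fold is given. The fit gave an adjusted p of 0.700 there, and the blocked fit a difference of 0.081.

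Across the genes, few differences passed. The members called were 0 for Pam2CSK4 (0.146% of all probes passed), 0 for anti-CD86 (2.17%), 0 for TLR2.CD86 (10.8%), 1 for anti-CD40 (Rsad2, lower, 16.8%) and 2 for anti-CD40 with Pam2CSK4 (Usp18 higher and Ifit3 lower, 18.2%), each against unstimulated cells. At an unadjusted p under 0.05 the numbers were 2, 2, 2, 2 and 2 of the 7 members that were well above background on all arrays. The same threshold was met by 5005, 7331, 9644, 10668 and 10741 of the 31599 probes tested. No call was made with anti-CD40 or with anti-CD40 with Pam2CSK4 under median or quantile normalization, or when either unstimulated array or either array of anti-CD40 with Pam2CSK4 was left out. The blocked fit called 1, 3, 2, 3 and 3 members at the adjusted p, beside 11.1%, 28.5%, 35.1%, 37.3% and 47.5% of all probes. Of these 7 members, those whose arrays all lay above the unstimulated ones were 1, 1, 1, 1 and 2, beside 19.8%, 25.4%, 27.5%, 26.6% and 38.5% of all probes. Those whose arrays all lay below were 2, 5, 3, 4 and 3, beside 37.7%, 37.0%, 36.6%, 35.7% and 37.5%. Over the same 7 members the median log2 fold change was 0.0024, -0.24, -0.28, -0.30 and -0.04 in that order, beside -0.07, -0.05, -0.03, -0.02 and 0.01 over all probes tested. A difference among the 6 conditions was called for Rsad2 (adjusted p = 0.0309) and Usp18 (adjusted p = 0.0377), and for 20.4% of all probes. In the blocked fit Ifit3, Isg15 and Oasl1 were added, and 60.0% of all probes were called.

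**Figure D2:**
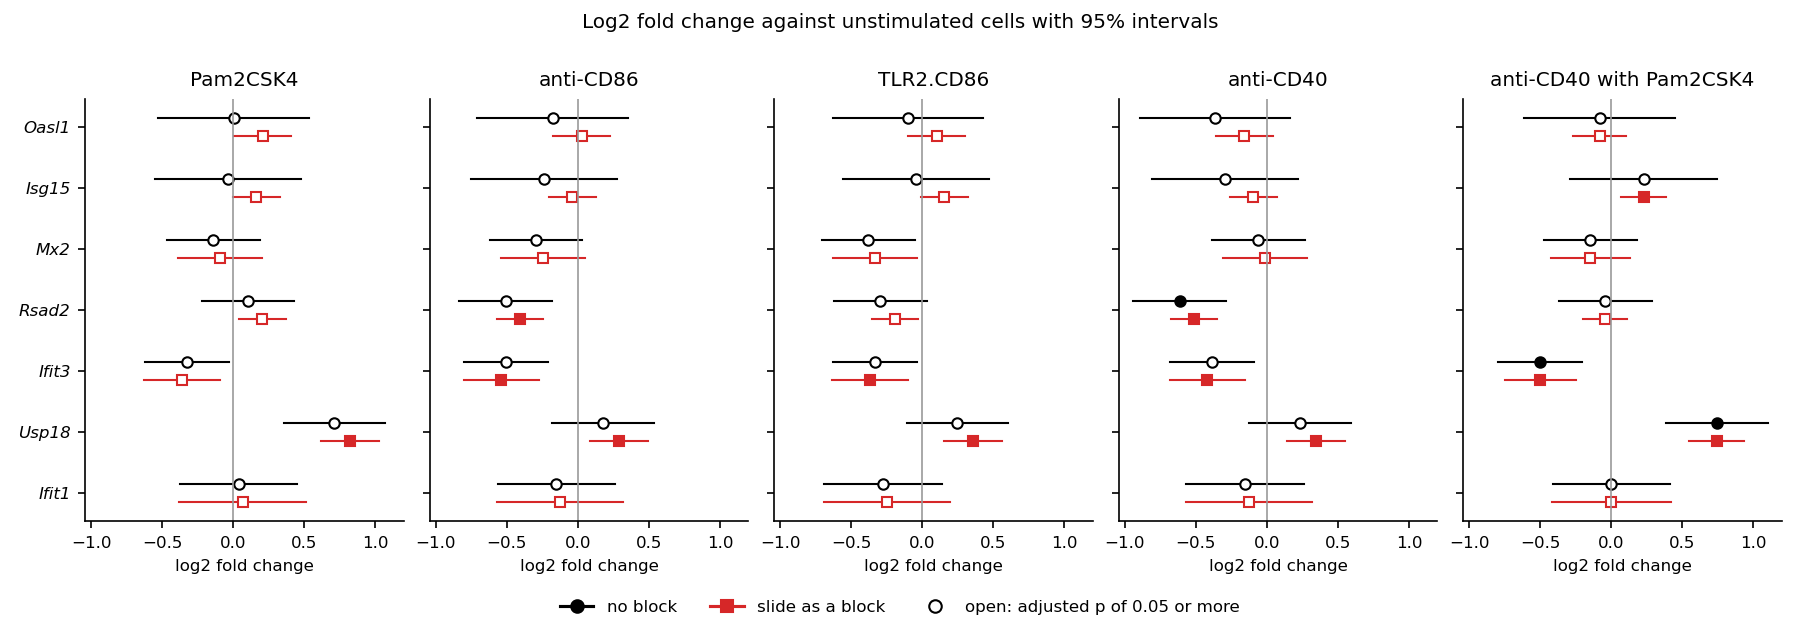
Log2 fold change against unstimulated cells (horizontal axis) of the 7 genes that were well above background on all arrays, one panel for each stimulation. Points are the fitted values with their 95% intervals, black without and red with the slide as a block, and filled points have an adjusted p under 0.05. Without the block, Rsad2 passed with anti-CD40 and Ifit3 and Usp18 with anti-CD40 with Pam2CSK4, and the intervals of Ifit1, Isg15, Mx2 and Oasl1 do not go above 0.74.

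The conditions with 2 signals were also compared with each signal alone. No member passed in TLR2.CD86 against Pam2CSK4 (0.0633% of all probes passed) or against anti-CD86 (0.225%). None passed in anti-CD40 with Pam2CSK4 against Pam2CSK4 (9.97%), against anti-CD40 (2.91%) or against TLR2.CD86 (12.3%). At an unadjusted p under 0.05 there were 2, 0, 0, 3 and 1 members, among them Usp18 and Rsad2. Of the 31599 probes tested, 3283, 2811, 8479, 6250 and 9498 were under that threshold. In the blocked fit the numbers called were 2, 0, 2, 3 and 1, beside 11.0%, 7.74%, 31.5%, 15.2% and 34.6% of all probes. The effect of both signals minus the sum of the single effects was called for 0 members, both for CD86 with TLR-2 (0.0190% of all probes) and for CD40 with TLR-2 (1.16%). An unadjusted p under 0.05 was found for 2 and 1 members, beside 1357 and 6131 of the 31599 probes tested. The blocked fit called 0 members as well, beside 0.234% and 8.59% of all probes. For Usp18 it was -0.64 with CD86 and TLR-2 (interval from -1.14 to -0.14, adjusted p = 0.969) and -0.75 in the blocked fit (adjusted p = 0.0792). For Ifit3 it was 0.50 with CD86 and TLR-2 (interval from 0.08 to 0.92, adjusted p = 0.969).

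The genes upstream of the members were examined from lists of the pathway. Of 17 interferon genes on the array, 9 passed the filter of the test. Ifnb1, which encodes interferon beta, was measured at -3.26 and -3.32 in unstimulated cells, -2.82 and -2.87 with Pam2CSK4, and -2.91 and -2.47 with anti-CD40 with Pam2CSK4. With TLR2.CD86 it measured -3.54 and -4.23, of which the second was not well above background (-0.60, adjusted p = 0.156). It was not well above background on either array of anti-CD40, where it was at least 1.28-fold lower (adjusted p = 0.0955). Nor was it on either array of anti-CD86, where it was at least 1.69-fold lower (adjusted p = 0.0137). This was the only call in the list, and 1.19% of all probes were called as lower with anti-CD86. Over the alternatives described below, leaving out single arrays aside, 0 to 4 genes of the list were called as lower there. The Ifnb1 values of Pam2CSK4 (0.44, adjusted p = 0.409) and of anti-CD40 with Pam2CSK4 (0.60, adjusted p = 0.142) did not pass. The receptor chains Ifnar1 and Ifnar2 had log2 fold changes between -0.24 and 0.20 in all 5 stimulations, none of which passed. Of the 6 receptor genes 1 was called, Ifngr1, a chain of the interferon gamma receptor. It was lower with TLR2.CD86 (-0.60, adjusted p = 0.0407), where 7.38% of all probes were called as lower. The receptor genes called as lower there numbered 0 to 2 over the same alternatives.

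Of the signalling arm, Stat2 was lower with anti-CD40 (-0.68, adjusted p = 0.0253) and with anti-CD40 with Pam2CSK4 (-0.56, adjusted p = 0.0423). Tyk2 was higher with TLR2.CD86 (0.72, adjusted p = 0.0297), and Irf9 did not pass in any stimulation (-0.27 to 0.12). Over the alternatives described below, leaving out single arrays aside, 0 to 1 genes of this arm were called as higher with TLR2.CD86. As lower, 0 to 2 were called with anti-CD40 and 0 to 2 with anti-CD40 with Pam2CSK4. In the fit as reported, 3.41%, 10.7% and 9.70% of all probes were called in these directions. Socs1 and Socs3, which inhibit cytokine signalling, were both lower with anti-CD40 (-0.98 and -0.67) and with anti-CD40 with Pam2CSK4 (-0.89 and -0.79), and Trim21 was lower with the latter (-1.04). These were 2 and 3 of the 8 negative regulators tested, where 10.7% and 9.70% of all probes were called as lower. The numbers were 0 and 1 without either unstimulated array, 0 and 0 under median normalization, and 4 and 4 in the blocked fit.

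Of the interferon regulatory factors, Irf7, which amplifies type I interferon production, had values from -0.72 to 0.08 that did not pass. Irf1 was higher with anti-CD40 with Pam2CSK4 (0.75, adjusted p = 0.0113), and so was Irf8 (0.75, adjusted p = 0.0371). Irf2 was lower with anti-CD40 (-1.08, adjusted p = 0.00812). Irf4, a factor of activated B cells and plasma cells, was higher with Pam2CSK4 (1.10), TLR2.CD86 (1.13), anti-CD40 (1.98) and anti-CD40 with Pam2CSK4 (2.26), and all of these passed. Of 12 nucleic acid sensors and adaptors tested, the kinase gene Ikbke was higher with TLR2.CD86 (1.16), anti-CD40 (1.12) and anti-CD40 with Pam2CSK4 (1.07). Ddx58 and Mavs were lower with anti-CD40 (-0.70 and -0.65) and Zbp1 with anti-CD40 with Pam2CSK4 (-1.07). In the blocked fit of anti-CD40 with Pam2CSK4, 1 ligand, 2 receptors, 4 regulatory factors and 1 sensor or adaptor were called as higher. As lower, 0, 1, 3 and 5 were called. That fit called 23.8% of all probes as higher and 23.7% as lower.

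A wider list of 66 other interferon-induced genes on the array, of which 60 were tested, was called as lower more often than as higher. No gene of the list was called with Pam2CSK4 or with anti-CD86. With TLR2.CD86 0 were higher and 5 lower, with anti-CD40 0 and 18, and with anti-CD40 with Pam2CSK4 4 and 12. The corresponding shares of all probes were 3.41% and 7.38%, 6.16% and 10.7%, and 8.54% and 9.70%. Under median normalization 0, 1 and 1 genes were lower in these conditions. When an array was left out the numbers ran from 0 to 8, 1 to 23 and 1 to 13. They were 0, 1 and 2 without replicate 1 of the unstimulated arrays, 0, 1 and 1 without replicate 2, and 2, 9 and 6 without replicate 1 of anti-CD40 with Pam2CSK4. Without replicate 2 of that condition they were 2, 9 and 1. Replicate 2 of anti-CD40 and replicate 2 of TLR2.CD86 also mattered to their own conditions, with 4 and 0 lower genes without them. With TLR2.CD86 the number was 3 without its replicate 1 or without either anti-CD86 array, and 8 without either anti-CD40 array. The median log2 fold change of the list was -0.22, -0.34, -0.32, -0.43 and -0.34 for Pam2CSK4, anti-CD86, TLR2.CD86, anti-CD40 and anti-CD40 with Pam2CSK4. Of the 60 genes, 52, 46, 50, 46 and 46 had values below 0, beside 59.4%, 54.7%, 53.6%, 51.3% and 49.2% of all probes. Stat2, Irf7, Irf9 and Ifih1 are also in the lists above.

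The genes called in the wider list were of several kinds. Trim25, a ubiquitin ligase of the RIG-I pathway, was lower with anti-CD40 (-1.60, adjusted p = 0.00282) and with anti-CD40 with Pam2CSK4 (-1.71, adjusted p = 0.00113). Epsti1 was lower with TLR2.CD86 (-0.90) and anti-CD40 (-0.62). Iigp1, an immunity-related GTPase, was called as lower with anti-CD40 with Pam2CSK4 (adjusted p = 0.0105). It was well above background there on 0 of 2 arrays, against 1 of 2 of unstimulated cells (-3.15 and -3.31), so that no fold is given. Nlrc5, which drives MHC class I transcription, was higher with anti-CD40 with Pam2CSK4 (1.15, adjusted p = 0.00228). The other 3 genes called as higher in that condition were Dtx3l (0.79), Gbp5 (0.73) and Ifi47 (0.51), all named here after their values were seen. In the blocked fit more genes were called, 1 higher and 5 lower with Pam2CSK4, 3 and 19 with anti-CD86, 3 and 23 with TLR2.CD86, 3 and 30 with anti-CD40 and 6 and 33 with anti-CD40 with Pam2CSK4. That fit called 4.71% of all probes as higher and 6.40% as lower with Pam2CSK4, 13.0% and 15.5% with anti-CD86, 14.5% and 20.6% with TLR2.CD86, 15.7% and 21.6% with anti-CD40, and 23.8% and 23.7% with anti-CD40 with Pam2CSK4.

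The same cells showed higher signals of NF-kB target genes. Of 20 such genes, 3 were called as higher with Pam2CSK4, 6 with TLR2.CD86, 12 with anti-CD40 and 12 with anti-CD40 with Pam2CSK4, and 1 with anti-CD86. The shares of all probes called as higher were 0.101%, 3.41%, 6.16%, 8.54% and 0.978% in that order. The blocked fit called 12, 11, 15, 19 and 4 of the 20 genes as higher, and median normalization 0, 0, 1, 4 and 0. Without replicate 1 of the unstimulated arrays the numbers were 0, 1, 5, 11 and 0, and without replicate 2 they were 0, 1, 4, 11 and 0. With TLR2.CD86 the number was 3 without either of its arrays. The gene with anti-CD86 was lost without either array of anti-CD86, Pam2CSK4 or anti-CD40 with Pam2CSK4. The medians of the list were 0.35, 0.25, 0.69, 1.26 and -0.12 in that order. Nfkbiz, a nuclear IkB protein, was higher with Pam2CSK4 (1.81, adjusted p = 0.00482), TLR2.CD86 (1.58), anti-CD40 (0.96) and anti-CD40 with Pam2CSK4 (2.41). Icam1, an adhesion molecule, was higher in all 5 stimulations, by 0.72 with anti-CD86, 1.49 with Pam2CSK4, 1.85 with TLR2.CD86, 2.70 with anti-CD40 and 2.84 with anti-CD40 with Pam2CSK4. Bcl2a1a, a survival gene of activated B cells, was higher with Pam2CSK4 (0.92), TLR2.CD86 (0.72), anti-CD40 (1.60) and anti-CD40 with Pam2CSK4 (2.02), and Nfkbid was higher in the last 3 of these (1.23, 1.61 and 2.27). The list has a gene called as lower with anti-CD40, Ier3 (-0.53), and another with anti-CD86, Ccl3 (-0.52), both named after their values were seen. With anti-CD86 1.19% of all probes were called as lower, and the blocked fit called 6 genes of the list as lower there.

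**Figure D3:**
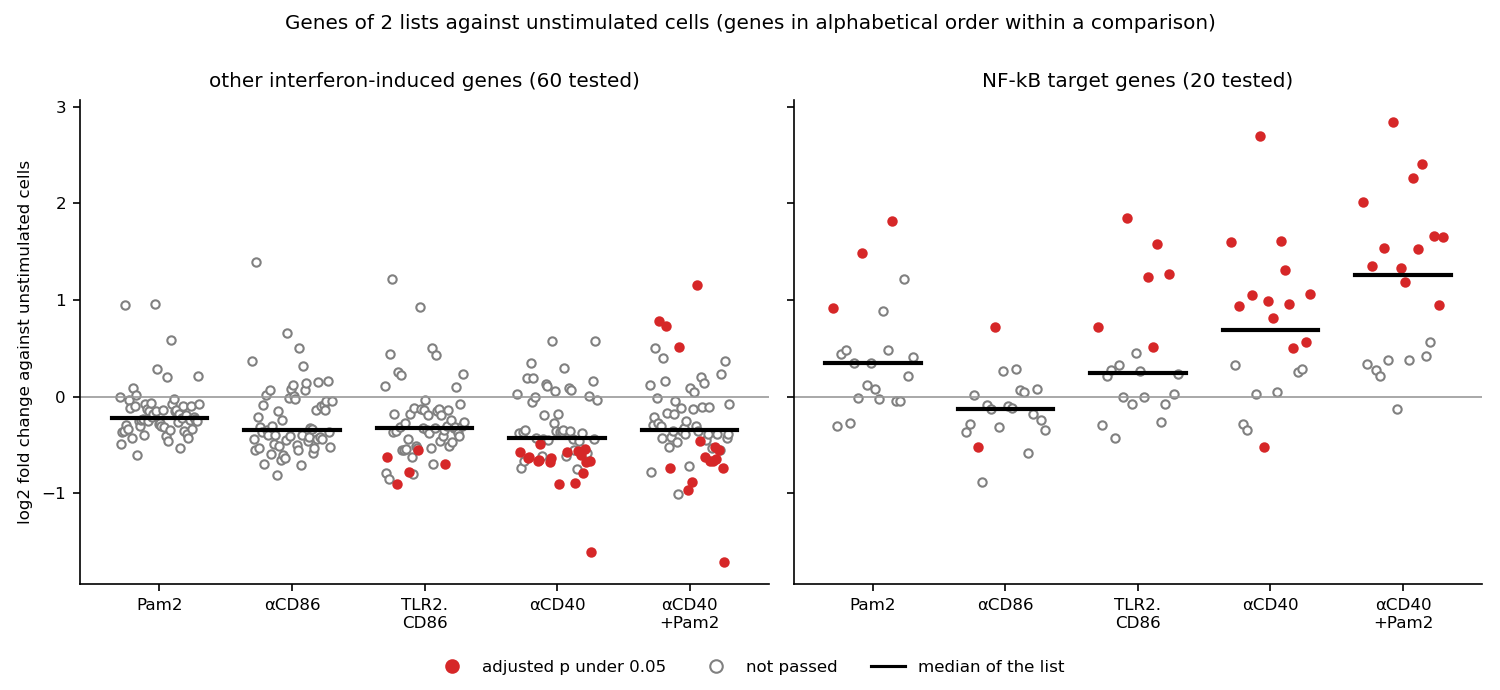
Log2 fold change against unstimulated cells (vertical axis) of the genes of 2 lists in the 5 stimulations (horizontal axis), 60 other interferon-induced genes on the left and 20 NF-kB target genes on the right. Each point is a gene, red where the adjusted p is under 0.05, and the bar is the median of the list. The medians lie between -0.43 and -0.22 on the left and rise to 1.26 on the right with anti-CD40 with Pam2CSK4.

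Markers of NK cells, of T cells, of monocytes and macrophages and of neutrophils were lower in the same comparisons. Their part in the results was not tested. In bulk RNA, fewer cells of a type and less RNA per cell cannot be told apart. The summed signal of 8 NK cell markers, as multiples of the 75th percentile of the array, was 23.6 to 23.9 in unstimulated cells, 14.8 to 17.7 with anti-CD40, 14.3 to 16.9 with TLR2.CD86 and 18.3 to 19.0 with anti-CD40 with Pam2CSK4. That of 8 monocyte and macrophage markers was 31.3 to 31.7, 19.3 to 22.8, 22.0 to 27.2 and 25.2 to 25.3 in the same order, and that of 7 neutrophil markers was 688 to 717, 492 to 577, 491 to 562 and 608 to 658. For 8 T cell markers the sums were 34.1 to 34.8, 24.0 to 30.8, 22.6 to 29.6 and 31.6 to 31.8. With anti-CD40, 4 NK cell, 2 monocyte and macrophage and 4 neutrophil markers were called as lower, beside 10.7% of all probes. The 8 markers of plasmacytoid dendritic cells, the strongest producers of type I interferon, had a sum of 115 to 121 in unstimulated cells, 109 to 146 with anti-CD40 and 149 to 150 with anti-CD40 with Pam2CSK4. Most of this sum was Irf8, at 68.7 to 73.0, 79.7 to 107 and 119 to 120. The other 7 markers together gave 46.6 to 47.8, 29.5 to 39.0 and 29.0 to 31.1, below unstimulated cells in both conditions. Of this list 2 genes were called as lower with anti-CD40, and 1 as higher and 1 as lower with anti-CD40 with Pam2CSK4. The shares of all probes in these 3 cases were 10.7%, 8.54% and 9.70%. Bst2 and Irf8 in it are also in the lists of interferon-induced genes and of regulatory factors.

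The summed signal of 7 liver genes was lower in every stimulation, most of all with anti-CD40 with Pam2CSK4. It was 11.70 to 11.95 in unstimulated cells and 5.48 to 8.46 with the stimulations other than anti-CD40 with Pam2CSK4. With anti-CD40 with Pam2CSK4 it was 0.587 to 0.713, and all 5 genes that were tested were called as lower, beside 9.70% of all probes. Apoc3 and Ttr were well above background in none of the conditions. Anti-CD40 with Pam2CSK4 is the condition in which the Usp18 and Ifit3 calls were made. The sum of 8 B cell markers was 526 to 577 in unstimulated cells, 533 to 635 with anti-CD40 and 683 to 746 with anti-CD40 with Pam2CSK4, and no B cell marker was called.

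**Figure D4:**
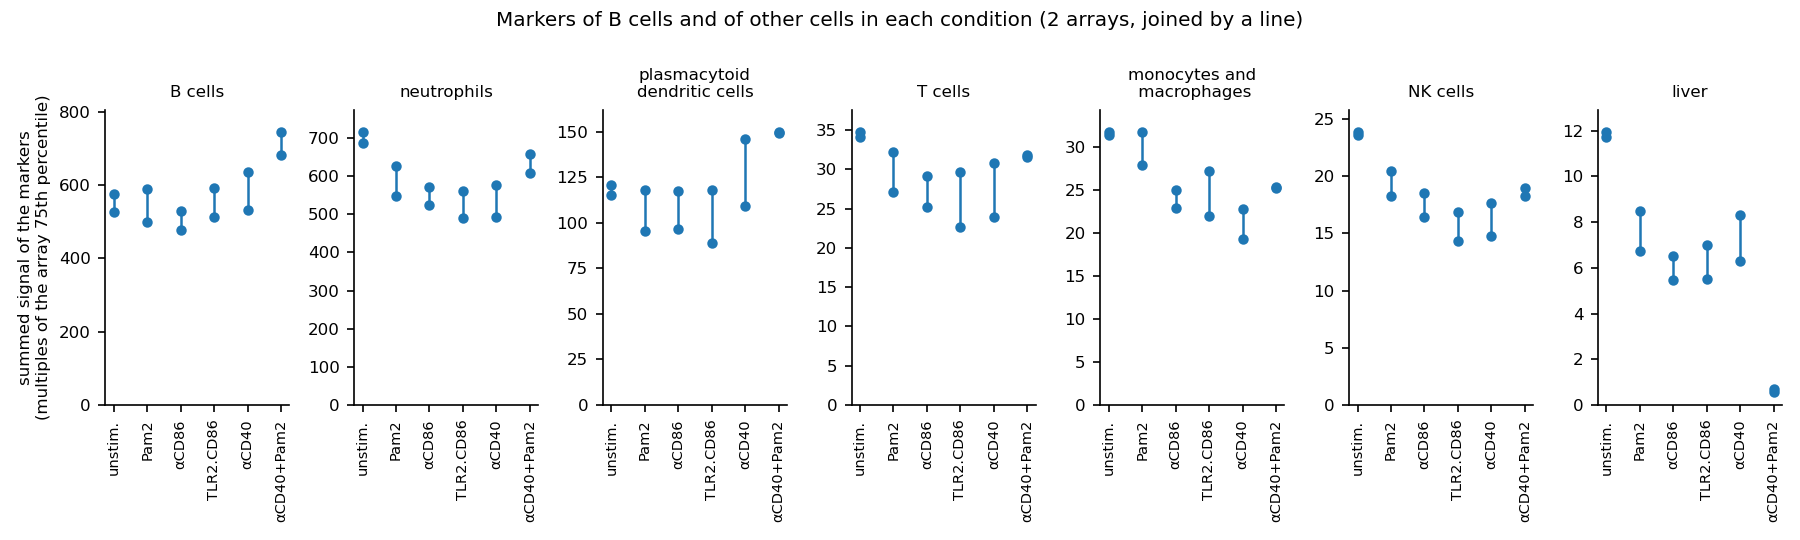
Summed signal of the markers of B cells and of other cell types in the 6 conditions, as multiples of the 75th percentile of the array (vertical axes start at 0 and differ between panels). Points are the 2 arrays of a condition, joined by a line. The NK cell, T cell, monocyte and macrophage, neutrophil and liver sums are highest in unstimulated cells or overlap with the highest. The liver sum with anti-CD40 with Pam2CSK4 is at most 0.713.

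The members did not move as a block across the arrays. Over the 12 arrays, the 21 pairs among the 7 genes that were well above background throughout had correlations between -0.48 (Ifit3 with Usp18) and 0.85 (Isg15 with Oasl1), with a median of 0.32. After the mean of each slide was subtracted they ran from -0.52 to 0.71, with a median of 0.27. The arrays share slides and scaling, so that these values are a description. Among 14399 other named genes, the 5 whose pattern was most like the mean standardized signal of the 7 members over the 12 arrays were Pfkm (r = 0.97), Klra23 (0.96), Dcp1b (0.96), Sqrdl (0.96) and Ng23 (0.95). After the slide means were subtracted they were Sqrdl (0.94), Dcp1b (0.93), Pfkm (0.92), Cxcl16 (0.92) and Sars2 (0.92), and 3 genes were in both sets. Pfkm encodes a phosphofructokinase, Dcp1b a decapping factor of messenger RNA and Sqrdl a mitochondrial sulfide oxidase.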

How the data were processed

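RNA of RB cells was measured on 12 Agilent arrays, 2 per condition. The deposited scanner files hold a processed signal intensity per spot, which the authors extracted with Agilent Feature Extraction (background corrected within each array, array design annotated to mm9). Normalized log2 values of these arrays, which the authors deposited as a table too, served as an alternative. The methods name GeneSpring GX and a one-way test. Each array had 61657 spots, of which 46.6% to 60.6% were well above background. The number of arrays limits the precision.

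Control spots and outlier spots (5 to 35 per array) were left out, saturated spots were kept and spots of a probe were averaged. Log2 intensities, scaled to the 75th percentile of each array, were tested with limma 3.58.1 (R 4.3.3), 1 coefficient per condition, all 12 arrays, empirical Bayes moderation and Benjamini-Hochberg adjustment over 31599 probes, those with no missing value that exceeded their background on each array of some condition. A call is an adjusted p under 0.05. The fit was tested on simulated data. Where a probe was well above background on no array of a group, the fold is a bound, set by the dimmest probe detected on the array. Further steps used Python 3.11.15, pandas 2.3.3, numpy 2.4.6 and matplotlib 3.10.9.

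All members are named. Of each pathway list, up to 4 genes called against unstimulated cells are named by size, plus Ifnb1, Ifnar1, Ifnar2, Stat2, Irf9, Irf7 and Irf1. One further gene and one probe sequence are not reported here. The members and lists were chosen with earlier results of these data known. Lists of red cell, T cell, exocrine pancreas, kidney and skeletal muscle markers had at most 2 genes called in any direction in a stimulation. Alternatives were median and quantile normalization, normexp with an offset of 50, the authors' log2 table, other filters, the slide and the replicate number as blocks, slide 1 alone, other moderation, only the groups compared, and leaving out each array.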

Additional observations from a re-analysis of the deposited data

Results flagged for a closer look

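The only result singled out was that of Icam1, an NF-kB target gene, because the effect of Pam2CSK4 on it differed with anti-CD40 present. The interaction of CD40 with TLR-2 was -1.34 on the log2 scale (adjusted p = 0.00922, limma). The log2 signal of Icam1 was 0.31 and 0.27 in unstimulated cells, 1.78 and 1.77 with Pam2CSK4, 3.07 and 2.91 with anti-CD40, and 3.16 and 3.11 with both. For the interferon-stimulated genes themselves, groups of 2 arrays allow no check for a single deviating array.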

How the results depend on the processing

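The calls depended on the scaling and on the slide. Median normalization, quantile normalization and the omission of the filter on dim probes each left 0 members called with anti-CD40 (1 as reported), 0 with anti-CD40 with Pam2CSK4 (2) and 0 among the 6 conditions (2). Normexp gave 0, 1 (Usp18) and 1, the variance trend 1 with anti-CD40 with Pam2CSK4 and 1 among the conditions, the fit without moderation 1 among the conditions, and only the groups compared 0 with anti-CD40. The slide as a block gave 1 member with Pam2CSK4, 3 with anti-CD86, 2 with TLR2.CD86, 3 with anti-CD40, and 5 among the conditions. It also gave 2 in TLR2.CD86 against Pam2CSK4, and 2, 3 and 1 in anti-CD40 with Pam2CSK4 against Pam2CSK4, anti-CD40 and TLR2.CD86. Slide 1 alone gave 1 with TLR2.CD86 and 2 with anti-CD40. The slide as a block with median normalization, chosen after seeing the data, gave 0 with anti-CD40 with Pam2CSK4 and 1 among the conditions. The cause of these differences was not tested. Under median normalization the median log2 fold change over all probes tested was -0.27, -0.19, -0.32, -0.58 and -0.10. The order is Pam2CSK4, anti-CD86, TLR2.CD86, anti-CD40 and anti-CD40 with Pam2CSK4. In the fit as reported it was -0.07, -0.05, -0.03, -0.02 and 0.01.

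The replicate numbers are shared across conditions, but nothing in the labels pairs the arrays. The deviations of same-numbered arrays correlated between -0.107 and 0.674 over 15 pairs of conditions. Among the conditions split over the slides the range was 0.538 to 0.674. Pairs with unstimulated cells or anti-CD40 with Pam2CSK4 gave -0.107 to 0.0666. In the split conditions the replicate number and the slide cannot be told apart. With the replicate number as a block 1 member was called with Pam2CSK4, 2 with anti-CD86, 1 with TLR2.CD86 (Mx1, not well above background there), 2 with anti-CD40, and 2 and 1 in anti-CD40 with Pam2CSK4 against anti-CD40 and TLR2.CD86.

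Leaving out 1 array gave 0 to 1 members with anti-CD40, 0 to 2 with anti-CD40 with Pam2CSK4, 0 to 1 in anti-CD40 with Pam2CSK4 against TLR2.CD86, 0 to 2 among the conditions and 0 elsewhere. Without either unstimulated array or either array of anti-CD40 with Pam2CSK4, 0 members were called with anti-CD40 and 0 with anti-CD40 with Pam2CSK4. Without replicate 2 of anti-CD40 the number with anti-CD40 was 0, and without either anti-CD86 array that with anti-CD40 with Pam2CSK4 was 1. Among the conditions the number was 0 without any 1 array of unstimulated cells, Pam2CSK4, anti-CD86 or anti-CD40 with Pam2CSK4, and 1 without replicate 2 of anti-CD40.

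Over 25 alternatives the Usp18 value with anti-CD40 with Pam2CSK4 ran from 0.45 to 0.78 (called in 17), that with Pam2CSK4 from 0.34 to 0.89 (called in 2), Rsad2 with anti-CD40 from -1.18 to -0.35 (called in 15) and Ifit3 with anti-CD40 with Pam2CSK4 from -0.61 to -0.19 (called in 13). The other interferon-induced genes called as lower with anti-CD40 numbered 1 under median normalization, 1 without the filter, 0 with only the groups compared and 30 with the slide as a block, against 18. With TLR2.CD86 these numbers were 0, 0, 0 and 23, against 5, and with anti-CD40 with Pam2CSK4 1, 4, 30 and 33, against 12. The NF-kB target genes called as higher with only the groups compared were 0 with Pam2CSK4, anti-CD86, TLR2.CD86 and anti-CD40 and 16 with anti-CD40 with Pam2CSK4. Leaving out 1 array gave 0 to 3, 0 to 1, 1 to 6, 4 to 12 and 11 to 13.

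Small differences turned their sign. Under median normalization these were Usp18 with anti-CD40 (-0.33) and TLR2.CD86 (-0.039), Rsad2 (-0.092), Oasl1 (-0.19) and Ifit1 (-0.16) with Pam2CSK4, and Ifit1 with anti-CD40 with Pam2CSK4 (-0.11). Quantile normalization turned Usp18 with anti-CD40 (-0.22), and Ifit1 with Pam2CSK4 (-0.077) and with anti-CD40 with Pam2CSK4 (-0.051). Normexp turned Usp18 with anti-CD86 (-0.014), Ifit1 with Pam2CSK4 (-0.055), and Rsad2 (0.046) and Mx1 (0.14) with anti-CD40 with Pam2CSK4. The authors' table turned Ifit1 with anti-CD40 with Pam2CSK4 (-0.0032) and Oasl1 with Pam2CSK4 (-0.00040). The slide as a block turned Isg15 with Pam2CSK4 (0.16) and TLR2.CD86 (0.15), Oasl1 with anti-CD86 (0.027) and TLR2.CD86 (0.10), and Mx1 with anti-CD40 (0.081). Slide 1 alone turned Isg15 with Pam2CSK4 (0.11) and TLR2.CD86 (0.20), Oasl1 with TLR2.CD86 (0.16) and Mx1 with anti-CD40 (0.033). The block with median normalization turned Isg15 with Pam2CSK4 (0.23), anti-CD86 (0.085) and TLR2.CD86 (0.13), Oasl1 with anti-CD86 (0.15) and TLR2.CD86 (0.082), and Ifit1 with anti-CD86 (0.0011) and anti-CD40 with Pam2CSK4 (-0.11). Leaving out an array turned signs in the ranges -0.076 to 0.15 (Ifit1, Pam2CSK4), -0.16 to 0.16 (Ifit1, anti-CD40 with Pam2CSK4), -0.19 to 0.11 and -0.29 to 0.20 (Isg15, Pam2CSK4 and TLR2.CD86), -0.97 to 0.033 and -1.30 to 0.69 (Mx1, anti-CD40 and anti-CD40 with Pam2CSK4), -0.15 to 0.028 (Mx2, anti-CD40), -0.17 to 0.17 and -0.36 to 0.16 (Oasl1, Pam2CSK4 and TLR2.CD86) and -0.094 to 0.0087 (Rsad2, anti-CD40 with Pam2CSK4). The median over the tested probes of a gene gave no other value, since each member had 1 tested probe, and only the groups compared gave no test among the 6 conditions. Ifit2, Oasl2 and mostly Mx1 were limited by signal over background.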
